A study of Homo sapiens with 6 samples.

Results

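CCR1, CCR2, CCRL2 and LTF are neighbouring protein-coding genes of the chemokine receptor cluster at 3p21, on the short arm of human chromosome 3, and they were followed in a paclitaxel-resistant derivative of a breast cancer cell line and in its parental line. They were taken as a list of 4 genes out of 28395 gene IDs, and they were chosen by their counts in these same libraries, in which CCR2 and CCRL2 had been seen to be lower in the resistant line. For these 4 genes that difference is therefore given as a description with no test. All 4 symbols were found in the counts, and 3 of them passed the filter on low counts. LTF did not pass, with 26 counts over all libraries.

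The resistant cells were MDA-MB-468-PR, obtained by growing MDA-MB-468 for 2 months in paclitaxel, a microtubule-stabilising drug, at 3 to 4.5 nM, and they gave 3 libraries. The control cells were the parental MDA-MB-468 line, an established human triple-negative breast cancer line, and gave 3 libraries. All 6 samples are labelled untreated at harvest, and no second resistant derivative was included here, so drug exposure cannot be told apart from other changes that arose while it was made. Replicate 1 of each line belongs to a batch dated 2020 and replicates 2 and 3 to a batch dated 2021.

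Chemokine receptors are membrane proteins that couple to G proteins and steer migrating cells along gradients of chemokines, and they are best known from leukocytes. CCR1 and CCR2 are signalling receptors of this kind, and CCR2 binds CCL2, the chemokine that draws monocytes out of the bone marrow. CCRL2 is an atypical receptor that binds the chemoattractant chemerin and presents it to cells with the signalling receptor CMKLR1, without signalling itself. LTF encodes lactoferrin, an iron-binding antimicrobial protein of milk, other glandular secretions and neutrophil granules, which shares the neighbourhood and not the family of the receptors.

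In RefSeq on GRCh38, CCR1 (Entrez gene 1230) lies on chromosome 3 from 46201711 to 46208313, on the minus strand. CCR2 (729230) lies from 46354111 to 46360940 and CCRL2 (9034) from 46407259 to 46409523, both on the plus strand. LTF (4057) lies from 46435645 to 46485234 on the minus strand. The 4 genes span 283.5 kb.

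The promoters of CCR2 and CCRL2 are shown because these genes carried the most counts and lie 53.1 kb apart. Each stretch of 300 bases, from RefSeq on GRCh38.p14, runs from 250 bases before the annotated start to 50 bases after it. Capitals mark matches, on either strand and not overlapping one another, to 4 motifs. TATAAA is the TATA box. TGANTCA is the AP-1 site. GAGGAA is a purine-rich ETS site. CCAAT names the last, the CCAAT box.
CCR2 promoter, plus strand, chr3:46353861-46354160: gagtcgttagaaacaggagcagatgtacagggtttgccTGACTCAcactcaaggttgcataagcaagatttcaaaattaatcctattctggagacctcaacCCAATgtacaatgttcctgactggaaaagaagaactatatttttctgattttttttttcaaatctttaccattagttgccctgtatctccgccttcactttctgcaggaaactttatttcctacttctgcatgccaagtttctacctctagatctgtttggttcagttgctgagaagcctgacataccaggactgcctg
CCRL2 promoter, plus strand, chr3:46407009-46407308: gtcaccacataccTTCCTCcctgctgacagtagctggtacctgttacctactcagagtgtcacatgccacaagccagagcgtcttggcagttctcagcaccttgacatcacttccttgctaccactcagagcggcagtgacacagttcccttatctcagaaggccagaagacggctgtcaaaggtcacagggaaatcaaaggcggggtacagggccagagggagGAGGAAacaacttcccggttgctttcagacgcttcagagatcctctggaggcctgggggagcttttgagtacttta

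The CCR2 stretch held 1 match to TGANTCA, which 7.71% of 35116 RefSeq promoters hold, and 1 to CCAAT, which 34.6% hold. The CCRL2 stretch held 2 matches to GAGGAA, which 27.9% hold, and none to CCAAT. Neither printed stretch held TATAAA, which 11.5% of promoters hold. The printed stretches had no motif of this set in common. CpG dinucleotides numbered 2 in the CCR2 stretch and 6 in the CCRL2 stretch, and the CCR1 promoter held 3, against a median of 14 over all promoters. RefSeq gives CCRL2 a further promoter downstream, not printed, which held 7 CpG and 1 match to TATAAA. It gives LTF 3 promoters, whose CpG counts were 7, 13 and 2.

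Libraries held 37.9 to 93.7 M counts, so that the limit set by a count of 0, which is 3 counts, equalled 0.0312 to 0.0808 CPM (counts relative to library size, scaled by TMM). Over all genes, 1633 of 13950 tested genes differed between the lines (edgeR quasi-likelihood fit of group and batch, adjusted p under 0.05 by Benjamini-Hochberg), or 11.7%. In the resistant line 869 were higher (6.23%) and 764 lower (5.48%). Without resistant replicates 1, 2 or 3 the count was 1001, 851 and 617, without control replicate 1 it was 1064, and without the batch term 362. The cells carried the epithelial and basal genes of their type in every library, with KRT8 at 1582 ± 138 CPM in resistant and 1613 ± 511 CPM in control libraries and KRT5 at 767 ± 237 and 771 ± 370 CPM (SD, n = 3 per group). Of 4 basal markers 1 rose and 1 fell in the resistant line. EGFR rose 1.61-fold (adjusted p = 0.0199, edgeR), and the basal keratin KRT14 fell 4.26-fold (adjusted p = 0.000894, edgeR).

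CCR2 had the most counts of the 4 genes. It had 19, 45 and 66 counts in resistant replicates 1 to 3, against 190, 246 and 410 in control replicates 1 to 3. On the scaled level this was 0.512, 0.675 and 0.685 CPM in resistant libraries, against 4.72, 4.40 and 6.05 CPM in control libraries. Every resistant library lay below every control library, and the resistant libraries differed little among themselves. The fitted log2 fold change was -3.01 ± 0.23 (SE), an 8.06-fold lower level in the resistant line.

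Among the tested members CCRL2, the atypical chemerin receptor, differed most in proportion. It had 2, 2 and 10 counts in resistant replicates 1 to 3, against 63, 235 and 193 in control replicates 1 to 3. The levels were 0.0539, 0.0300 and 0.104 CPM in resistant libraries, of which replicates 1 and 2 lay under their limits of 0.0808 and 0.0450 CPM, against 1.57, 4.201 and 2.85 CPM in control libraries. The groups did not overlap, while the control libraries themselves spread widely, with the 2020 library lowest. The fitted log2 fold change was -5.45 ± 0.43 (SE), or 43.6-fold lower. The ratio of summed counts, control over resistant, was 42.8, with a 95% counting interval of 25.3 to 78.9.

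CCR1, the receptor for CCL3 and CCL5 among others, was low in both lines. It had 1, 6 and 15 counts in resistant replicates 1 to 3, against 7, 25 and 47 in control replicates 1 to 3. The levels were 0.0269, 0.0900 and 0.156 CPM in resistant libraries, against 0.174, 0.447 and 0.693 CPM in control libraries. The 1 count of resistant replicate 1 lay under that library's limit of 0.0808 CPM, and the 2020 values given further on rest on it. The highest resistant library lay just below the lowest control library, so the groups did not overlap. The fitted log2 fold change was -2.21 ± 0.43 (SE), or 4.63-fold lower, and the ratio of summed counts, control over resistant, was 4.38 with a 95% counting interval of 2.703 to 7.38.

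LTF, lactoferrin, had 0, 0 and 0 counts in the resistant libraries, against 2, 8 and 16 in control replicates 1 to 3. At these depths 0 counts set only an upper limit, and 2 counts in control replicate 1 lay under the limit of that library as well. The floor was 3 counts over the whole resistant group, and the control counts were taken without their counting error. On that footing the level was at least 10.6-fold lower in the resistant line. This bound was 5.49-fold without resistant replicate 3 and 6.93-fold without control replicate 3.

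**Figure D1:**
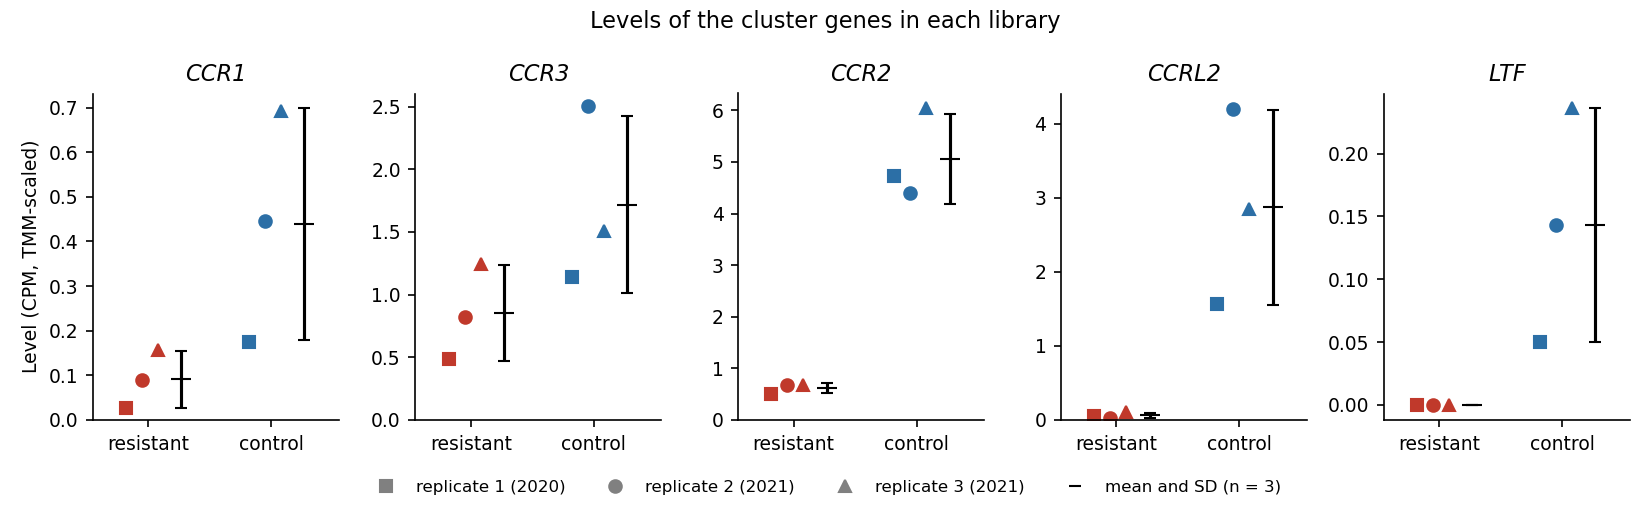
Level in CPM, on a linear axis of its own for each gene, in the 3 resistant and 3 control libraries. Symbols give the replicate and its batch, and bars give the mean and SD (n = 3). CCR2, CCRL2 and CCR1 are lower in every resistant than in every control library. LTF is at 0 in each resistant library, where 0 counts set only an upper limit, whereas the groups of CCR3 overlap, at up to 1.25 CPM in resistant and down to 1.14 CPM in control libraries.

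The 3 tested genes were among 47 genes with a log2 fold change of -2 or less, which are 0.337% of those tested. Resistant libraries lay below control libraries without overlap in 3 of 3 tested members, where 10.2% of all tested genes did so and 20.9% did not overlap in either direction. Since this contrast chose the genes, neither count is support for them. By size of the fitted decrease CCRL2 ranked 9, CCR2 22 and CCR1 39 among the 13950 tested genes. The fitted values kept their sign under other processing. Over 15 alternatives each, CCR2 stayed between -3.17 and -2.88 and CCRL2 between -6.048 and -5.0002, and over 14 alternatives CCR1 stayed between -2.64 and -1.94 on the log2 scale.

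Levels can be set side by side between genes only per length, and were divided by the kilobases of exon that GENCODE 29 gives each gene (RPKM). The libraries were captured with exome probes, whose yield per gene is not known here and was not tested, so the order describes captured reads per length. In resistant cells the order was CCR2 at 0.167 ± 0.0261 RPKM, CCR1 at 0.0333 ± 0.0236, CCRL2 at 0.0204 ± 0.0123 and LTF at 0 in each library (SD, n = 3). There CCR1 and CCRL2 overlapped, CCR1 reaching 0.00986 to 0.0570 RPKM and CCRL2 0.00980 to 0.0339 RPKM. In control cells the order was CCR2 at 1.35 ± 0.234 RPKM, CCRL2 at 0.938 ± 0.431, CCR1 at 0.1604 ± 0.0951 and LTF at 0.0337 ± 0.0219 (SD, n = 3). CCR2 and CCRL2 overlapped in control cells, at 1.18 to 1.62 RPKM and 0.511 to 1.37 RPKM, and both stood above CCR1 in every library. By group means CCRL2 thus took the second place in control cells and the third in resistant cells, but not in every library. In resistant replicate 1 it stood above CCR1, at 0.0176 against 0.00986 RPKM. In control replicate 2 it stood above CCR2, at 1.37 against 1.18 RPKM.

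Within a library, the proportion of CCRL2 to CCR2 does not depend on scaling. For every 100 counts of CCR2 there were 10.5, 4.44 and 15.2 counts of CCRL2 in resistant replicates 1 to 3, against 33.2, 95.5 and 47.1 in control replicates 1 to 3. The highest resistant value lay below the lowest control value. That is a description with no test, since the contrast that chose both genes enters it. The resistant values rest on 2, 2 and 10 counts of CCRL2.

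Both batches showed the lower levels. In the 2020 pair of libraries the log2 CPM difference, resistant minus control, was -3.13 for CCR2, -4.202 for CCRL2 and -1.79 for CCR1. In the 2 against 2 libraries of 2021 it was -2.86 for CCR2, -5.23 for CCRL2 and -1.95 for CCR1. These differences used a prior count of 2, which draws small counts together. Without it, the CPM ratio of control to resistant was 9.23 in 2020 and 7.68 in 2021 for CCR2. For CCRL2 this ratio was 29.1 and 52.7, and for CCR1 6.46 and 4.64. For CCR1 the 2020 difference was then the larger. LTF was at 0 against 2 counts in 2020 and at 0 in both resistant libraries against 8 and 16 counts in 2021. Whether the difference between the lines itself differed between batches was tested with an interaction term, which leaves 2 residual degrees of freedom. The unadjusted p was 0.642 for CCR2, 0.577 for CCRL2 and 0.759 for CCR1 (edgeR), so no difference between batches was detectable. No gene passed the adjusted threshold for this term, 0% of 13950, and 187 genes (1.34%) had an unadjusted p under 0.05. No other tool was run on it.

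**Figure D2:**
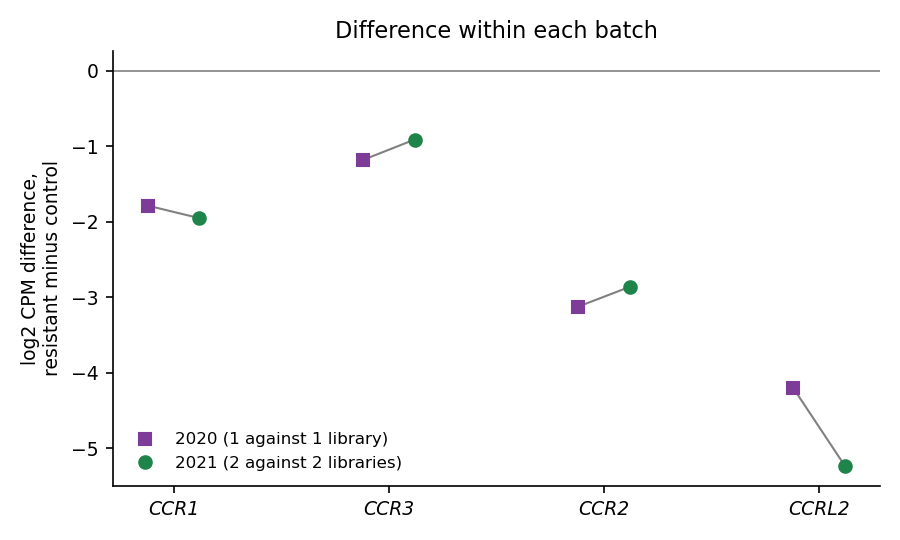
Difference in log2 CPM, resistant minus control, within the 2020 pair (squares) and the 2021 libraries (circles) for 4 genes of the cluster. Log2 CPM includes a prior count of 2, which draws small counts together. There is no error bar, since 2020 holds 1 library of each line. All values lie below 0, from -0.91 for CCR3 in 2021 to -5.23 for CCRL2 in 2021.

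The batches themselves, a contrast that did not choose the genes, differed in 1 of the 3 tested members, where 22.9% of all tested genes differed. CCR1 was 3.49-fold higher in 2021 than in 2020 (log2 fold change 1.80 ± 0.55 SE, adjusted p = 0.0464, edgeR). In 2021 it was at 0.0900 and 0.156 CPM in resistant and 0.447 and 0.693 CPM in control libraries, against 0.0269 CPM in resistant and 0.174 CPM in control cells of 2020. CCRL2 had a log2 difference of 1.07 ± 0.44 (SE) between 2021 and 2020, which did not pass (adjusted p = 0.106, edgeR). CCR2 had 0.24 ± 0.24 (SE), which did not pass either (adjusted p = 0.478, edgeR).

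CCR3, the eotaxin receptor known from eosinophils, lies between CCR1 and CCR2 on chromosome 3, from 46210696 to 46266706. It had 0.485, 0.825 and 1.25 CPM in resistant libraries, against 1.14, 2.50 and 1.505 CPM in control libraries. Resistant replicate 3 lay above control replicate 1, so the groups overlapped, although the resistant library was lower within 2020 and both were within 2021. Its log2 fold change of -1.02 ± 0.30 (SE) did not pass (adjusted p = 0.0645, edgeR). It passed with DESeq2 (adjusted p = 0.0452), without a filter (0.0183) and without control replicate 3 (0.0141), and over all alternatives the adjusted p ran from 0.0141 to 0.330.

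Outside the stretch from CCR1 to LTF, 35 counted genes lay within 1 Mb of it, a set defined after the values were seen. Of these 16 were tested and 0 passed (edgeR, lowest adjusted p = 0.118), where 11.7% of all tested genes passed. DESeq2 and limma voom called 0 of the 16 as well, and KIF9-AS1 had the single unadjusted p under 0.05. Their median log2 fold change was 0.0073, against -0.0039 over all tested genes. The 19 too low to test included 9 with no count in any library, and none had over 13 counts in a library.

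The nearest tested genes on either side were close to 0. FYCO1, an adaptor for vesicle transport whose end lies 205.9 kb before CCR1, was at 33.5, 40.3 and 43.7 CPM in resistant libraries, against 36.1, 48.7 and 46.2 CPM in control libraries. Its log2 fold change was -0.15 ± 0.09 (SE, adjusted p = 0.337, edgeR). ALS2CL, 183.8 kb beyond LTF, was at 12.8, 12.9 and 10.9 CPM in resistant libraries, against 12.8, 9.65 and 11.2 CPM in control libraries, with a log2 fold change of 0.13 ± 0.13 (SE, adjusted p = 0.581, edgeR). The libraries of the lines overlapped for both. Of the 16 tested neighbours outside the stretch, 13 had a mean of at least 1 CPM, and their log2 fold changes were at most 0.22 in size. KIF9-AS1 was at 0.438 ± 0.0672 CPM in resistant and 0.225 ± 0.0442 CPM in control libraries (SD, n = 3). Its groups did not overlap, as in 20.9% of all tested genes. It had the largest change of the 16, 0.95 ± 0.34 (SE), and did not pass (adjusted p = 0.118, edgeR). KIF9-AS1 is antisense to KIF9, and reads of the pair cannot be told apart where strand was not used.

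**Figure D3:**
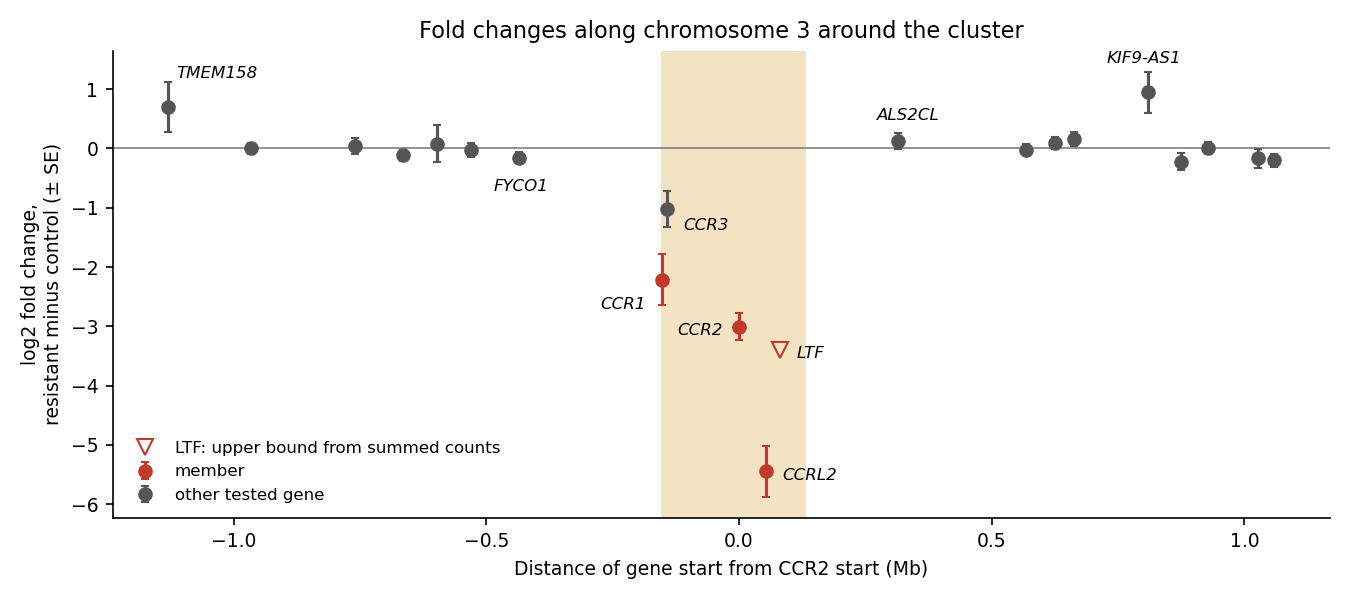
Log2 fold change, resistant minus control, with its SE for the tested genes shown, by the distance of its start from the start of CCR2 in Mb. Shading spans CCR1 to LTF, red points are the members and grey points other genes, and the open triangle is the upper bound for LTF. The tested genes outside the shading lie from -0.22 to 0.95, and CCR1, CCR2 and CCRL2 lie from -5.45 to -2.21, with CCR3 at -1.02 in grey.

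Farther out, 115 tested genes lay 1 to 5 Mb from the stretch, with a median log2 fold change of -0.02. Of these, 7 rose and 1 fell, where 6.23% of all tested genes rose and 5.48% fell. Over all 769 tested genes of chromosome 3 more than 1 Mb away the median was 0.04, with 46 risen and 17 fallen.

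Receptors of the family have related sequences, and the handling of reads with several matches is not given in the sources used here. In GENCODE 29 transcripts the longest exact stretch that CCR1 and CCR3 share was 31 bases, and that of CCR2 and CCR3 20 bases. CCRL2 shared at most 14 bases with CCR1, CCR2, CCR3 or LTF. Stretches shared with further genes are not given, so the counts of each receptor remain uncertain to that extent.

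Among the rest of the family, most chemokine receptor genes were hardly counted. Of 20 other receptors on the list, 19 were in the counts, 13 of these had at most 3 counts in every library, and 3 could be tested. Of these 3, 0 passed (edgeR), where 11.7% of all tested genes passed, and so few genes cannot be told apart from that share. CCR3 alone had an unadjusted p under 0.05 (edgeR), and it was called by DESeq2. The median log2 fold change of the 3 was -0.03, against -0.0039 over all tested genes. The most abundant was ACKR2, an atypical receptor that takes up inflammatory chemokines, whose gene also lies on chromosome 3. It was at 15.1, 21.3 and 23.3 CPM in resistant libraries, against 17.9, 22.0 and 20.5 CPM in control libraries, with a log2 fold change of -0.03 ± 0.12 (SE, adjusted p = 0.894, edgeR). Its groups overlapped throughout.

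Most of the ligands were not detected. Of 11 genes for ligands of CCR1 and CCR2, 10 had no count in any library. CCL2, the main CCR2 ligand, had 5, 48 and 8 counts in resistant replicates 1 to 3, against 1, 0 and 4 in control replicates 1 to 3. The resistant libraries lay above the control libraries, but the gene did not pass the filter on low counts and was not tested. RARRES2, which encodes chemerin, had 0, 1 and 1 counts in resistant libraries, against 1, 7 and 5 in control libraries. CMKLR1, the signalling chemerin receptor, had 1 count in all, in control replicate 3. CMKLR2, a further chemerin receptor, had 2, 1 and 4 counts in resistant libraries, against 0, 1 and 0 in control libraries.

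Most genes for proteins that couple chemokine receptors to the cell were counted well enough to test. GNG2 and PIK3CG were not, with at most 3 and 5 counts in a library. Of 18 genes on this list 16 were tested, 1 rose and 1 fell, where 11.7% of all tested genes passed, and the median log2 fold change was -0.03, against -0.0039 over all tested genes. GRK3, a kinase that phosphorylates activated receptors, rose 1.41-fold to 40.8 ± 3.31 CPM in resistant libraries, against 28.9 ± 2.30 CPM in control libraries (SD, n = 3; adjusted p = 0.0143, edgeR). ARRB1, the beta-arrestin that uncouples and internalises them, fell 1.37-fold to 35.3 ± 4.72 CPM in resistant libraries, against 48.8 ± 10.0 CPM in control libraries (SD, n = 3; adjusted p = 0.0178, edgeR). Leaving out control replicate 1 or a resistant replicate took the call from GRK3 (edgeR adjusted p at most 0.0881). ARRB1 was no longer called without resistant replicates 2 or 3 (at most 0.105).

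Other secreted antimicrobial and milk proteins, the company in which lactoferrin is usually found, were read next. Of 17 genes 11 were tested, 3 rose and 1 fell, where 6.23% of all tested genes rose and 5.48% fell, and the median log2 fold change was -0.19. S100A7, psoriasin, fell 2.13-fold to 313, 309 and 293 CPM in resistant libraries, against 580, 541 and 839 CPM in control libraries (adjusted p = 0.00561, edgeR). DEFB1, a beta-defensin, rose 1.94-fold to 7.45 ± 1.10 CPM in resistant libraries, against 3.83 ± 0.544 CPM in control libraries (SD, n = 3; adjusted p = 0.0109, edgeR). LCN2, which withholds iron from bacteria by binding their siderophores and is named here after its values were seen, rose 1.61-fold to 112 ± 18.9 CPM, against 69.7 ± 2.48 CPM in control libraries (SD, n = 3; adjusted p = 0.00692, edgeR). WFDC2, an epithelial secreted protein, rose 7.27-fold (adjusted p = 0.0496, edgeR), with 0.727, 5.81 and 1.27 CPM in resistant and 0.174, 0.232 and 0.590 CPM in control libraries.

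The call of WFDC2 ended without any single replicate except resistant replicate 3 (adjusted p up to 0.255), under the replicate block (0.109), without a filter (0.206), with limma voom (0.0829), without the batch term (0.124), in 2021 alone (0.168) and with a minimum mean of 1 CPM (0.05004). Without resistant replicate 2, its highest library, the log2 fold change was 1.73, against 2.86 with it. Leaving out the batch term also ended the calls of LCN2 (0.0546), DEFB1 (0.0570), HFE (0.0801), GRK3 (0.108), TFR2 (0.214) and ARRB1 (0.289). DEFB1 was not called where control replicate 1, resistant replicate 1 or resistant replicate 3 was left out (at most 0.0838). S100A7 kept its call in all 15 alternatives. Casein and lactalbumin genes had at most 2 counts in a library.

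Of 10 genes for iron binding and transport 8 were tested, 1 rose and 1 fell, where 11.7% of all tested genes passed, and the median log2 fold change was 0.0050. HFE, a regulator of iron uptake, fell 1.61-fold to 15.2 ± 1.38 CPM in resistant libraries, against 24.5 ± 4.197 CPM in control libraries (SD, n = 3; adjusted p = 0.0108, edgeR). TFR2, a transferrin receptor named here after its values were seen, rose 3.30-fold to 0.487 ± 0.148 CPM, against 0.149 ± 0.107 CPM in control libraries (SD, n = 3; adjusted p = 0.0323, edgeR). HFE was not called where resistant replicate 3 was left out (0.0753), nor TFR2 without any replicate except control replicate 3 (up to 0.141) and under the replicate block (0.0590). LRP1, a large endocytic receptor that takes up lactoferrin among many ligands, rose 2.61-fold to 69.1, 98.2 and 88.1 CPM in resistant libraries, against 37.8, 30.4 and 29.4 CPM in control libraries (adjusted p = 0.00220, edgeR), and kept its call in all 15 alternatives. ITLN1, another lactoferrin receptor, had at most 3 counts in a library.

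**Figure D4:**
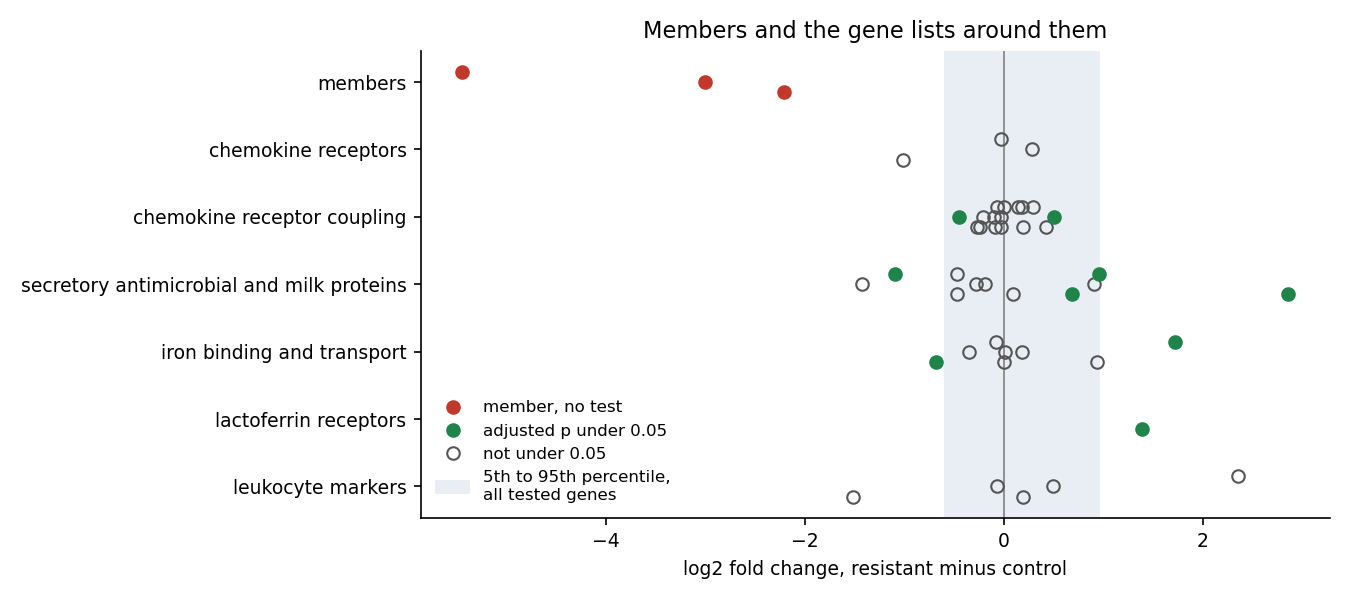
Log2 fold change, resistant minus control, of the 3 tested members (red, no test) and of the tested genes of each list; green points passed at an adjusted p under 0.05 and open points did not. The shaded band holds the middle of all tested genes, from the 5th percentile at -0.59 to the 95th at 0.96, and the members lie left of it.

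CCR1, CCR2 and LTF are leukocyte genes by repute, and a list of 14 leukocyte markers was read beside them. PTPRC, the CD45 protein of all leukocytes, had 2, 6 and 7 counts in resistant libraries, against 3, 1 and 3 in control libraries. Of the 14 markers 6 had no count in any library and 8 had at most 3 counts in every library, among them the T-cell gene CD3E and the granulocyte gene MPO. The summed level of the list was 12.3 to 20.3 CPM in resistant and 12.3 to 21.7 CPM in control libraries. CD14 was the largest part of it, at 12.4 ± 3.34 and 11.3 ± 6.46 CPM (SD, n = 3). In control replicate 2 CD14 was 8.81 of 18.1 CPM. CSF1R, the macrophage growth factor receptor, was at 1.67, 2.12 and 1.23 CPM in resistant libraries, against 4.2, 7.78 and 2.37 CPM in control libraries, and did not pass (adjusted p = 0.0758, edgeR). It passed with the replicate number as a block (0.0139), with DESeq2 (0.00364) and without control replicate 3 (0.000388). ITGAX, an integrin of myeloid cells, lay the other way, at 0.539, 0.315 and 0.270 CPM in resistant libraries, against 0.224, 0.0536 and 0 CPM in control libraries, without overlap. Its log2 fold change of 2.36 ± 0.65 (SE) did not pass (adjusted p = 0.0513, edgeR), but it passed in 6 of 14 alternatives, among them DESeq2 (0.0416), no filter (0.00771), and leaving out resistant replicate 1, control replicate 1 or control replicate 3 (0.0390 to 0.0452). The integrin ITGAM had 0.49 ± 0.50 (SE) and the B-cell gene CD79A -0.07 ± 0.42 (SE), and neither passed. The part of these markers in the members' levels was not tested. In RNA from many cells, fewer cells with a transcript and less of it per cell cannot be told apart.

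The genes whose levels over the 6 libraries were most like those of each member were sought among all genes with a mean of at least 1 CPM, by the root mean square difference of log2 CPM after each gene was centred on its own mean. CCR2 was closest to HSD17B2, at 0.33, then to PRODH, at 0.48, and HSD17B1, at 0.53. CCRL2 was closest to PTGIS, at 0.71, FLRT2, at 0.72, and MAGEA4, at 1.02. Log2 CPM here includes a prior count of 2, which draws genes near 0 counts together. FLRT2 was at 0 CPM in each resistant library, with a log2 fold change of -10.49, against -5.45 for CCRL2. The profiles also hold the contrast that chose the members, so likeness is a description only. CCR1 was closest to DIRAS2, at 0.39, FAM83E, at 0.42, and KRT14, at 0.42. None of these 9 genes lies on chromosome 3. HSD17B2, an enzyme that oxidises oestradiol, was at 5.90, 5.18 and 3.90 CPM in resistant libraries, against 26.2, 33.3 and 40.5 CPM in control libraries. PTGIS, prostacyclin synthase, was at 0.0269, 0.135 and 0.135 CPM in resistant libraries, against 3.01, 9.87 and 2.63 CPM in control libraries.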

How the data were processed

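RNA-seq was done on 3 resistant and 3 control libraries, made from 100 ng of total RNA with capture by exome probes, per the labels' protocols. The deposited values are whole-number counts per Entrez gene ID that the authors did not normalise, and each column was matched to a sample by its library name. Trimmomatic 0.38, STAR 2.7.8a, featureCounts of Subread and GRCh38 are named in the submitters' processing notes. Strand, annotation release and multi-mapping settings: not given in the sources used here. Names and positions came from RefSeq on GRCh38.p14, which matched 27745 of 28395 IDs.

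Genes were filtered with filterByExpr by group and scaled by TMM. They were tested with the robust quasi-likelihood test of edgeR 4.0.16 with batch and group as terms, which leaves 3 residual degrees of freedom, and adjusted over all 13950 tested genes. SE derive from the F statistic, and log2 CPM used a prior count of 2. Between the 2021 replicates of a line, chi-square over degrees of freedom was 70.0 in resistant and 94.9 in control cells, above sampling noise. Between replicate 1 and the others it was 109 to 215, which includes the batch difference. Each library counted as a sample. Separate cultures are not stated in the labels, so the p-values reflect only the spread among these libraries, which may be technical. The labels name no molecular identifiers and reads may be PCR copies, so 95% intervals (exact binomial, from summed counts) and limits of 3 counts cover counting error only. Deviations of libraries with the same replicate number from their group means correlated at 0.729, 0.143 and 0.155, and a fit blocked on the number, without the batch, was an alternative. Any pairing of samples by number rests on these correlations alone, and they do not show it within 2021. There, same numbers correlated at 0.143 and 0.155, below crossed numbers at 0.570 and 0.477. The 0.729 is for replicate 1 of each line, where number and batch cannot be told apart. The block is therefore given only as another setting of the fit.

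The 4 genes and all lists were chosen with earlier results of these data known. Named beside the members are genes of the stretch they span, the nearest tested gene on each side, passing neighbours within 1 Mb, and per list up to 2 risen and 2 fallen genes averaging 1 CPM or more, or the most abundant where none passed. LCN2, TFR2, KIF9-AS1, PTPRC, CSF1R, ITGAX, ITGAM, CD79A and untested genes given by their counts fall outside this rule and were named after their values were seen. Some genes that the rule and lists cover are not reported here and are left out of the counts of neighbours and lists, so those counts do not describe every gene of the region or family. They remain in the fit and in counts over all genes. LTF did not pass the filter, so the ratio of its summed counts replaced the planned fit. Robust fitting was adopted after a run without it had been seen. In simulated counts for this comparison on 13950 genes, the test recovered 39.4% of those changed 1.5-fold, 79% at 2-fold and 95.8% at 4-fold. The simulated counts held no batch difference. These shares are over genes of all levels, and the share for genes with low counts was not taken apart.

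Alternatives changed the scaling (upper quartile, or size factors of DESeq2), the filter (none, or 1 CPM on average), the tool (voom of limma 3.58.1, or DESeq2 1.42.0), the batch term (left out, or replaced by the block) and the libraries (those of 2021, or all but 1 replicate).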

Additional observations from a re-analysis of the deposited data

How the results depend on the processing

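The log2 fold changes of CCR1, CCR2 and CCRL2 kept their sign and moved by less than the spread between replicates in every alternative run. These were 14 for CCR1, which a minimum mean of 1 CPM removed, and 15 each for CCR2 and CCRL2. That spread, 0.88 for CCR1, 0.23 for CCR2 and 0.64 for CCRL2, is over replicates of both batches and so holds the batch difference. Without resistant replicates 2 or 3 the value of CCRL2 moved by more than its SE of 0.43. Leaving out 1 replicate gave -2.64 to -1.94 for CCR1, -3.17 to -2.88 for CCR2 and -6.048 to -5.0002 for CCRL2. With the replicate block they were -2.25, -3.00 and -5.43. The bound for LTF ran from 5.49 to 12.9 when 1 replicate was left out. The count of called genes, 1633, was 362 without the batch term, 1012 in the 2021 batch alone, 1303 under the replicate block, and 617 to 1985 without 1 replicate; the cause was not tested. The replicate block ended the calls of WFDC2 and TFR2 and added that of CSF1R. It changed no other call among the 16 genes from lists for which the alternatives were compared. EGFR, KRT5, KRT8, KRT14 and CD79A were not among these 16. Among the 17 tested neighbours within 1 Mb that are reported here, the count called was 0, but 1, CCR3, with no filter and with the DESeq2 test, and 0 to 1 without 1 replicate. Outside the stretch from CCR1 to LTF, a choice made after seeing the data, it was 0. DESeq2 size factors and no filter left the batch differences of CCR1, CCR2 and CCRL2 on the same side of the threshold. Depth limits CCR1, CCRL2 and LTF in resistant cells, where single libraries held 0 to 15 counts.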
